A study of Homo sapiens with 8 samples.

Results

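The DNA replication machinery was followed at the mRNA level in 2 clones of LN229, a human glioblastoma cell line, with and without the alkylating drug temozolomide (TMZ). The set holds 49 genes, taken from the count file by gene symbol, and all 49 were among the 14201 genes with enough reads to be tested. By role, 15 are origin licensing genes, 9 are origin firing genes, 20 are elongation genes and 5 are grouped as fork and chromatin genes. This last group holds genes of the fork and of chromatin assembly behind it, and MCM8, a helicase of homologous recombination, was placed in it. Clone Surv-GFP (D6) carries Survivin with its functional nuclear export sequence (NES) fused to eGFP, predominantly cytoplasmic per the labels. Clone SurvNESmut-GFP (L2) carries the same fusion with the NES mutated by L96A and L98A. Both carry the pcDNA3.1 fusion plasmid under G418 selection, on top of endogenous Survivin. The 4 groups were each clone without drug and each clone kept in TMZ at 50 µM over 48 h, with 2 libraries (letters a and b) per group. The sources used here do not say whether untreated cells received the solvent DMSO.

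Replication starts at origins, where the origin recognition complex (ORC), CDC6 and CDT1 load the ring-shaped MCM2 to MCM7 helicase in G1, a step called licensing. Kinases, CDC45 and the GINS complex then turn the loaded ring into the active helicase, a step called firing, and polymerases, primase, the sliding clamp PCNA and the single-strand binding protein RPA copy the DNA. Many of these genes are transcribed by E2F factors as cells enter S phase, and cells with damaged DNA repress many of them through p53 and p21. In bulk RNA, fewer cells in S phase and less RNA per cell cannot be told apart. Each construct is represented by 1 clone, so clone and NES status cannot be told apart either.

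Gene counts summed to 15826923 in the smallest and 18861603 in the largest library. Levels are given in CPM, read counts scaled to a common library size with TMM factors. Letters of 1 group correlated at 0.994 or more in log2 CPM, and no pair of letters was alike within sampling noise. The study calls its RNA-seq replicates independent and biological, each with technical duplicates, but the sources used here do not say which of these the letters mark. Every error and p-value below describes the spread between letters, which is technical if they mark technical duplicates. BIRC5, the Survivin gene, was at 1152 and 1113 CPM in untreated Surv-GFP, 1938 and 2029 after TMZ, 407 and 414 in untreated SurvNESmut-GFP and 262 and 253 after TMZ. Reads of the transgene and of the endogenous gene are not separated in the count file. The glioma markers VIM, NES, CD44, SOX2 and OLIG2 were read in all 8 libraries, and the astrocyte marker GFAP held at most 17 counts. The untreated clones stood far apart in S100B (798 and 756.5 CPM in Surv-GFP against 41.2 and 40.1 CPM in SurvNESmut-GFP), SOX2 (88.8 and 92.6 against 33.6 and 35.2 CPM) and OLIG2 (35.2 and 32.7 against 7.37 and 6.501 CPM). Of 6 markers of other cell types, 5 held at most 7 counts in any library, and the myelin gene MBP was at 0 in Surv-GFP and between 6.22 and 7.10 CPM in SurvNESmut-GFP.

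The start regions of the members held E2F words more often than those of all genes, though not in every member. RefSeq (GRCh38.p14) gave 250 bases before and 50 bases after the start of 43 of the 49 genes. MCM4, MCM5, GINS4, POLD3, RPA2 and RPA3 were not matched. The E2F words TTTCCCGC, TTTCGCGC, TTTGCCGC and TTTGGCGC, read on both strands, were in the region of 22 of 43 members (51.2%) against 3.99% of all 27305 genes in that table. A gene with several listed starts was counted if any of them held a word. The CCAAT box (CCAAT, both strands) was in 25 of 43 (58.1%) against 39.7%, and the CHR element (TTTGAA, both strands), known from late cell cycle genes, in 1 of 43 (2.33%, DBF4) against 18.2%. These words were chosen after the expression values were known. The windows below, 30 bases each and given 5′ to 3′ on the strand of the gene, show E2F words in capitals for some of the genes whose values follow. Not shown are the words of MCM3, ORC3, GMNN, GINS1, GINS3, TOPBP1, POLA1, POLA2, POLE, RFC3, LIG1 and MCM8. A further word of CDC7 and of MCM7 is also left out. In MCM6 and MCM2 the capitals span 2 overlapping words on opposite strands.
MCM6, chr2:135876575-135876604, minus strand: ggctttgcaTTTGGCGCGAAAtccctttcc
MCM6, chr2:135876513-135876542, minus strand: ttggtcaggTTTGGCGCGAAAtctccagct
MCM2, chr3:127598404-127598433, plus strand: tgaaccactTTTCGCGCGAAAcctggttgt
MCM7, chr7:100101388-100101417, minus strand: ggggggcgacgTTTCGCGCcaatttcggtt
GINS2, chr16:85688967-85688996, minus strand: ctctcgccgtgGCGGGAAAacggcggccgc
CDC7, chr1:91501033-91501062, plus strand: gtgcagttcctTTTCCCGCcccccttcgga
PCNA, chr20:5126663-5126692, minus strand: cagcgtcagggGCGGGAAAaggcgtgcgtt
POLE2, chr14:49688201-49688230, minus strand: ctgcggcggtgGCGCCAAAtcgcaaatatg
CLSPN, chr1:35769965-35769994, minus strand: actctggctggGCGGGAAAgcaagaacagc
CDC6, chr17:40287875-40287904, plus strand: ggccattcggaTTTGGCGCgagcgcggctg
CDT1, chr16:88803743-88803772, plus strand: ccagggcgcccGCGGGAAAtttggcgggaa

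The question of the main comparison was how the replication genes of each clone responded to TMZ. In Surv-GFP cells, 29 of 49 members (59.2%) fell after TMZ and 6 (12.2%) rose, against 28.9% and 30.1% of all tested genes at an adjusted p of 0.05 (edgeR's quasi-likelihood F test, Benjamini-Hochberg). Their median log2 fold change was -0.22, where that of all tested genes was 0.00. In SurvNESmut-GFP cells, 9 members (18.4%) fell and 13 (26.5%) rose, against 19.1% and 18.6% of all tested genes, and their median was 0.08. The share of fallers in SurvNESmut-GFP thus lay near the background, and the share of risers above it, though only 6 of the 13 risers kept their call in all 11 alternative settings. Set side by side, 8 members fell in both clones and 3 rose in both. A further 16 fell in Surv-GFP without passing the test in SurvNESmut-GFP. In 5 members a fall in Surv-GFP met a rise in SurvNESmut-GFP, and only PRIM1 kept both calls in every alternative setting. No member rose in Surv-GFP and fell in SurvNESmut-GFP. These joint counts were not taken over all tested genes. A call in 1 clone alone shows no difference between the clones. MCM7, ORC1, ORC4 and RFC5 were among the 16, and their differences were not called.

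The difference between the TMZ effects of the clones was tested directly. The log2 fold change upon TMZ was higher in SurvNESmut-GFP than in Surv-GFP for 28 of 49 members and lower for 3, against 16.6% and 20.2% of all tested genes, with a median difference of 0.31. Under 14 alternative settings 24 of these 28 members kept their call in every setting. GMNN, ORC3, MCM6 and GINS1 lost it in at least 1.

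**Figure D1:**
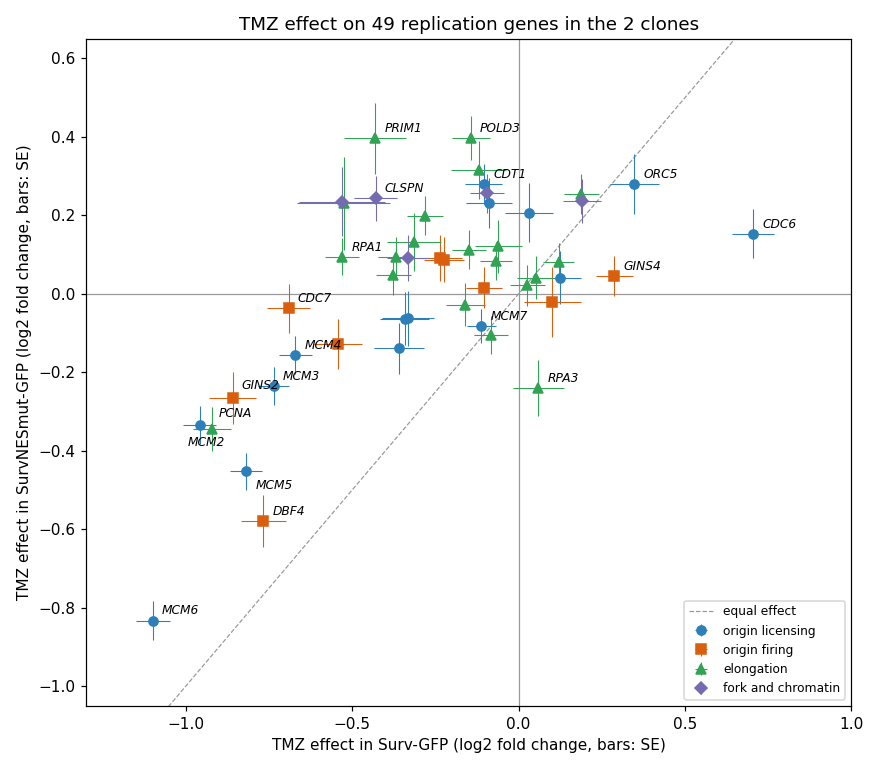
Log2 fold change upon TMZ in Surv-GFP (x axis) and in SurvNESmut-GFP (y axis) for the 49 members, with SE bars, 1 symbol per role. Most points lie above the dashed line of equal effect, MCM6 is lowest on both axes (-1.10 and -0.83), CDC6 is the highest on the x axis (0.71), and PRIM1 lies at -0.43 and 0.40.

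By role, the fallers of Surv-GFP were spread over all 4 steps. Of the licensing genes 9 of 15 fell and 2 rose, of the firing genes 6 of 9 fell and 1 rose, of the elongation genes 11 of 20 fell and 2 rose, and of the fork and chromatin genes 3 of 5 fell and 1 rose. The median log2 fold changes were -0.33, -0.23, -0.15 and -0.33 in that order. In SurvNESmut-GFP, where 19.1% of all tested genes fell and 18.6% rose, 5 of 15 licensing genes fell and 4 rose, 2 of 9 firing genes fell and none rose, 2 of 20 elongation genes fell and 5 rose, and 4 of 5 fork and chromatin genes rose and none fell, with medians of -0.06, -0.02, 0.09 and 0.24. Whether the roles differ from each other was not tested. An E2F word was held by 14 of 26 fallers of Surv-GFP, by 6 of 12 genes not called there and by 2 of 5 risers.

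**Figure D2:**
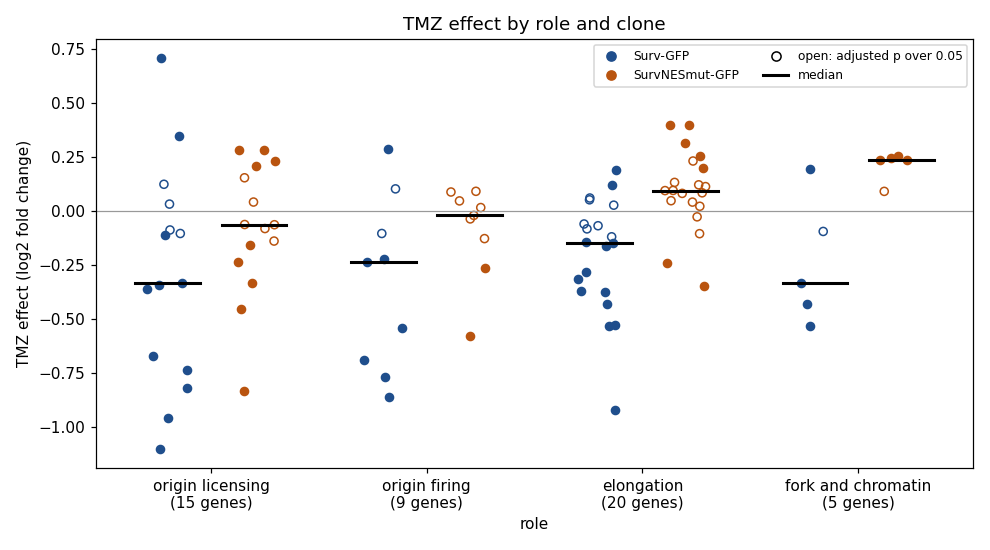
Log2 fold change upon TMZ of each member by role, blue for Surv-GFP and orange for SurvNESmut-GFP, filled where the adjusted p was at most 0.05, with horizontal lines at the medians. The Surv-GFP median is below 0 in all 4 roles (-0.33, -0.23, -0.15 and -0.33) and the SurvNESmut-GFP median is above 0 for elongation (0.09) and for fork and chromatin genes (0.24).

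Summed over the 49 members, replication mRNA was 4901 and 5124 CPM in untreated Surv-GFP, 4133 and 4017 after TMZ, 6085 and 6189.8 in untreated SurvNESmut-GFP and 5869 and 5965 after TMZ. The Surv-GFP libraries after TMZ were the lowest of the 8 and those of untreated SurvNESmut-GFP the highest, and no groups overlapped. Summed licensing mRNA was 2263 and 2349.7 CPM before and 1768 and 1740.4 CPM after TMZ in Surv-GFP, and 2687 and 2686 CPM before and 2354 and 2390.0 CPM after TMZ in SurvNESmut-GFP. Summed elongation mRNA was 1674 and 1748 CPM before and 1476 and 1423 CPM after TMZ in Surv-GFP. In SurvNESmut-GFP its sums of 2164 and 2210.2 CPM before and 2185 and 2231 CPM after TMZ overlapped. The sums weight genes by their level and carry no test.

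The helicase genes MCM2 to MCM7 fell in Surv-GFP, 6 of 6, against 28.9% of all tested genes, with a median log2 fold change of -0.78. MCM7 moved least, at -0.11 ± 0.04. In SurvNESmut-GFP 5 of 6 fell, against 19.1% of all tested genes, with a median of -0.28. MCM6 was at 237 and 253 CPM in untreated Surv-GFP, 114 and 115 after TMZ, 252 and 254 in untreated SurvNESmut-GFP and 141 and 143 after TMZ. Both TMZ groups lay well below both untreated groups, which overlapped. MCM6 fell by 1.10 ± 0.05 (SE) on the log2 scale in Surv-GFP (edgeR adjusted p = 1.7e-11) and by 0.83 ± 0.05 in SurvNESmut-GFP (edgeR adjusted p = 2.4e-09). It was the only member past a log2 change of 1 in this direction in Surv-GFP, which 5.29% of all tested genes reached. Its smaller fall in SurvNESmut-GFP, a difference of 0.27 ± 0.07, was no longer called without untreated Surv-GFP replicate b (0.21).

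MCM2 was at 182 and 185 CPM in untreated Surv-GFP, 94.0 and 95.05 after TMZ, 267 and 254 in untreated SurvNESmut-GFP and 204 and 209 after TMZ. The 4 groups did not overlap, and the Surv-GFP libraries after TMZ were the lowest. It fell by 0.96 ± 0.05 on the log2 scale in Surv-GFP and by 0.33 ± 0.05 in SurvNESmut-GFP, a difference of 0.62 ± 0.07 (edgeR adjusted p = 3.3e-06). MCM5 was at 202 and 209 CPM in untreated Surv-GFP, 115 and 118 after TMZ, 285 and 278 in untreated SurvNESmut-GFP and 204 and 208 after TMZ. SurvNESmut-GFP after TMZ thus overlapped untreated Surv-GFP. The log2 fold changes of MCM5 were -0.82 ± 0.05 and -0.45 ± 0.05, and they differed by 0.37 ± 0.07 (edgeR adjusted p = 0.00046).

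MCM3 and MCM4 had log2 fold changes of -0.74 ± 0.05 and -0.67 ± 0.05 in Surv-GFP, and of -0.23 ± 0.05 and -0.16 ± 0.05 in SurvNESmut-GFP. The SurvNESmut-GFP call of MCM4 was lost without untreated SurvNESmut-GFP replicate a (-0.17) or b (-0.14) or with library size alone (-0.12). Between the clones these 2 genes lay in opposite order. Untreated SurvNESmut-GFP held less MCM3 than untreated Surv-GFP (-0.37 ± 0.05) and more MCM4 (0.45 ± 0.05). MCM7 stood apart as the most abundant of the 6, at 694 and 709 CPM in untreated Surv-GFP, 658 and 639 after TMZ, 784 and 789 in untreated SurvNESmut-GFP and 731 and 755 after TMZ. Its fall in Surv-GFP was only 0.11 ± 0.04 on the log2 scale (edgeR adjusted p = 0.038). MCM7 lost this call with the replicate letter as a block and whichever of the 4 Surv-GFP libraries was left out (-0.13 to -0.09). In SurvNESmut-GFP its log2 fold change of -0.08 ± 0.04 did not pass the test.

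**Figure D3:**
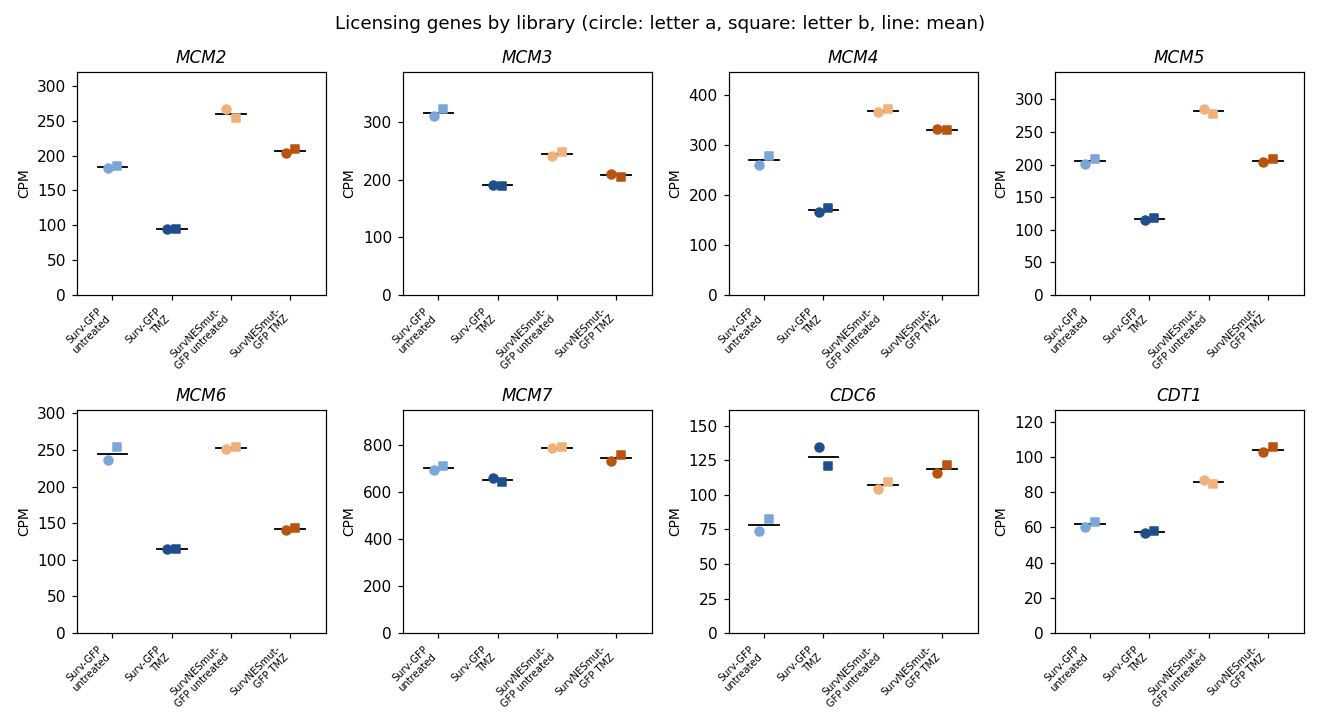
CPM per library (y axis, from 0) of 8 licensing genes in the 4 groups, circles for letter a, squares for letter b and lines for the mean. MCM2 to MCM6 are lower after TMZ in both clones with the larger step in Surv-GFP, MCM7 stays between 639 and 789 CPM, and CDC6 rises in Surv-GFP from 74.2 and 82.4 to 134 and 121 CPM.

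The 3 genes that control the loading of this ring did not move as one. CDC6, the ATPase that joins ORC at the origin, was at 74.2 and 82.4 CPM in untreated Surv-GFP, 134 and 121 after TMZ, 104 and 109 in untreated SurvNESmut-GFP and 116 and 122 after TMZ. Untreated Surv-GFP was the lowest group and did not overlap the others, and the TMZ groups of the clones overlapped. Its rise of 0.71 ± 0.06 in Surv-GFP was the largest of the members (edgeR adjusted p = 7.5e-08). In SurvNESmut-GFP the log2 fold change was 0.15 ± 0.06 and not called, and without SurvNESmut-GFP TMZ replicate a or with library size alone it was 0.19 and called. The difference of -0.55 ± 0.09 (edgeR adjusted p = 0.00015) was the only one of the 3 lower differences that kept its call in every alternative setting.

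CDT1, which brings the MCM ring to ORC, was at 60.0 and 63.3 CPM in untreated Surv-GFP, 56.6 and 58.2 after TMZ, 86.9 and 84.4 in untreated SurvNESmut-GFP and 103 and 106 after TMZ. It rose by 0.28 ± 0.05 in SurvNESmut-GFP (edgeR adjusted p = 0.0004), while its log2 fold change of -0.10 ± 0.06 in Surv-GFP did not pass the test. The effects differed by 0.39 ± 0.08. GMNN, which encodes the CDT1 inhibitor geminin, fell by 0.34 ± 0.07 in Surv-GFP and was at -0.06 ± 0.07 in SurvNESmut-GFP. Its difference of 0.28 ± 0.10 was called (edgeR adjusted p = 0.04), and it lost its call without any single library except Surv-GFP TMZ replicate a or SurvNESmut-GFP TMZ replicate b, with values of 0.22 to 0.30 where it was lost, and with DESeq2 (0.3).

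The log2 fold changes of the ORC genes ranged from -0.36 to 0.35 in Surv-GFP and from -0.14 to 0.28 in SurvNESmut-GFP. In Surv-GFP ORC1 and ORC4 fell (-0.33 ± 0.08 and -0.36 ± 0.08) and ORC5 rose, and in SurvNESmut-GFP ORC3, ORC5 and ORC6 rose and none fell. ORC5 was at 29.97 and 28.4 CPM in untreated Surv-GFP, 36.3 and 38.0 after TMZ, 26.8 and 25.3 in untreated SurvNESmut-GFP and 32.9 and 30.3 after TMZ. It rose by 0.35 ± 0.07 in Surv-GFP (edgeR adjusted p = 0.00064) and by 0.28 ± 0.08 in SurvNESmut-GFP (edgeR adjusted p = 0.0088), and the latter call was lost without SurvNESmut-GFP TMZ replicate a (0.22) or untreated replicate b (0.24) or with DESeq2 (0.27). ORC3 was at 41.6 and 39.5 CPM in untreated Surv-GFP, 39.5 and 36.7 after TMZ, 60.1 and 56.5 in untreated SurvNESmut-GFP and 66.0 and 71.0 after TMZ. It rose by 0.23 ± 0.06 in SurvNESmut-GFP and was at -0.09 ± 0.07 in Surv-GFP. Without untreated SurvNESmut-GFP replicate b neither this rise (0.19) nor the difference of 0.32 ± 0.09 (0.27) was called, and without untreated Surv-GFP replicate a the difference was 0.28 and not called. ORC6 rose by 0.21 ± 0.08 in SurvNESmut-GFP (edgeR adjusted p = 0.039), lost without TMZ replicate a (0.19) or untreated replicate b (0.15), without the filter on low counts, with DESeq2 and with only the 4 libraries compared, and ORC2 passed the test in neither clone.

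Among the firing genes, the kinase that triggers firing fell in both of its subunits in Surv-GFP. CDC7, the catalytic subunit, was at 63.2 and 66.4 CPM in untreated Surv-GFP, 41.9 and 38.4 after TMZ, 61.7 and 64.3 in untreated SurvNESmut-GFP and 59.2 and 63.7 after TMZ. Only the Surv-GFP libraries after TMZ stood apart, and the other 3 groups overlapped. CDC7 fell by 0.69 ± 0.06 in Surv-GFP (edgeR adjusted p = 1.2e-07), was at -0.04 ± 0.06 in SurvNESmut-GFP, and the effects differed by 0.65 ± 0.09 (edgeR adjusted p = 3.1e-05).

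DBF4, its activating subunit, was at 59.0 and 57.1 CPM in untreated Surv-GFP, 34.3 and 33.9 after TMZ, 55.6 and 56.7 in untreated SurvNESmut-GFP and 35.2 and 40.0 after TMZ. Unlike CDC7 it was low after TMZ in both clones, by 0.77 ± 0.07 and 0.58 ± 0.07 on the log2 scale. The difference of 0.19 ± 0.10 between the clones was not called (edgeR adjusted p = 0.14), but was 0.28 and called without SurvNESmut-GFP TMZ replicate a.

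The 4 GINS genes, whose products form 1 complex of the active helicase, split. GINS2 was at 46.4 and 44.2 CPM in untreated Surv-GFP, 26.0 and 23.8 after TMZ, 44.4 and 45.9 in untreated SurvNESmut-GFP and 38.0 and 37.1 after TMZ. It fell by 0.86 ± 0.07 in Surv-GFP (edgeR adjusted p = 2.3e-08) and by 0.27 ± 0.07 in SurvNESmut-GFP, where it was no longer called without untreated replicate b (-0.24). The effects differed by 0.59 ± 0.10 (edgeR adjusted p = 0.00017). GINS4 moved the opposite way, with 60.2 and 62.6 CPM in untreated Surv-GFP, 73.7 and 76.2 after TMZ, 114 and 119 in untreated SurvNESmut-GFP and 117 and 124 after TMZ. It rose by 0.29 ± 0.06 in Surv-GFP (edgeR adjusted p = 0.00031), and its difference between the clones, -0.24 ± 0.08, lost its call without untreated Surv-GFP replicate a (-0.22), Surv-GFP TMZ replicate b (-0.19) or untreated SurvNESmut-GFP replicate b (-0.21), with library size alone (-0.18) or with DESeq2 (-0.22). GINS1 fell in Surv-GFP (-0.23 ± 0.06, not called without untreated replicate b, -0.17), and GINS3 passed the test in neither clone.

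CDC45, the helicase cofactor, fell in Surv-GFP by 0.54 ± 0.07 and was at -0.13 ± 0.06 in SurvNESmut-GFP, not called. MCM10, which helps to activate the helicase, fell by 0.22 ± 0.06 in Surv-GFP and not without untreated replicate b (-0.18). TOPBP1, a scaffold of origin firing and of checkpoint signalling, was at 122 and 134 CPM in untreated Surv-GFP, 121 and 118 after TMZ, 153 and 154 in untreated SurvNESmut-GFP and 152 and 159 after TMZ. SurvNESmut-GFP was the higher clone with and without TMZ, and TMZ changed TOPBP1 in neither clone by the test, with log2 fold changes of -0.10 ± 0.05 and 0.02 ± 0.05. Without untreated Surv-GFP replicate a the first was -0.17 and called.

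Of the 11 elongation genes that fell in Surv-GFP, PCNA fell most. PCNA, the sliding clamp, was at 317 and 328 CPM in untreated Surv-GFP, 177 and 164 after TMZ, 416 and 446 in untreated SurvNESmut-GFP and 326 and 353 after TMZ. SurvNESmut-GFP after TMZ overlapped untreated Surv-GFP, and the Surv-GFP libraries after TMZ were far below all others. It fell by 0.92 ± 0.06 in Surv-GFP (edgeR adjusted p = 8.2e-10) and by 0.34 ± 0.06 in SurvNESmut-GFP (edgeR adjusted p = 0.00013), a difference of 0.58 ± 0.08. The clamp loader did not follow the clamp in each of its subunits. RFC1, its large subunit, was at 96.4 and 100.3 CPM in untreated Surv-GFP, 116 and 108 after TMZ, 106 and 105 in untreated SurvNESmut-GFP and 126 and 125 after TMZ. It rose by 0.19 ± 0.05 and 0.25 ± 0.05 on the log2 scale, and the Surv-GFP call was lost without replicate a of either group (0.16 and 0.14). RFC4 and RFC5 fell in Surv-GFP (-0.31 ± 0.08 and -0.16 ± 0.06). The call of RFC5 was lost without untreated replicate a (-0.17) or b (-0.14), without TMZ replicate a (-0.16) or with DESeq2 (-0.18). RFC2 and RFC3 passed the test in neither clone.

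The members called in opposite directions in the clones were PRIM1, POLD1 and POLD3 among the primase and polymerase genes, and CLSPN and CHAF1B among the fork and chromatin genes. Of them, only PRIM1 kept both calls in every alternative setting. The fall of POLD3 and the rises of POLD1, CLSPN and CHAF1B were each lost in at least 1. PRIM1, the catalytic primase subunit, was at 35.8 and 38.5 CPM in untreated Surv-GFP, 30.96 and 24.0 after TMZ, 32.2 and 32.2 in untreated SurvNESmut-GFP and 42.5 and 42.2 after TMZ. After TMZ the Surv-GFP libraries were the lowest and the SurvNESmut-GFP libraries the highest. PRIM1 fell by 0.43 ± 0.09 in Surv-GFP (edgeR adjusted p = 0.00075) and rose by 0.40 ± 0.09 in SurvNESmut-GFP (edgeR adjusted p = 0.0024), and its difference of 0.83 ± 0.13 was the largest of the members. PRIM2, the regulatory primase subunit, was at 25.4 and 24.2 CPM in untreated Surv-GFP, 23.7 and 21.9 after TMZ, 34.1 and 35.3 in untreated SurvNESmut-GFP and 40.9 and 45.6 after TMZ. It rose by 0.32 ± 0.07 in SurvNESmut-GFP, and its log2 fold change of -0.12 ± 0.08 in Surv-GFP did not pass the test. POLA2, the accessory subunit of polymerase alpha, was at 81.3 and 83.9 CPM in untreated Surv-GFP, 75.9 and 72.9 after TMZ, 97.2 and 100.1 in untreated SurvNESmut-GFP and 107 and 106 after TMZ. Its fall of 0.15 ± 0.05 in Surv-GFP was lost without untreated replicate b (-0.12) or TMZ replicate b (-0.15), and in SurvNESmut-GFP it was at 0.11 ± 0.05, not called except with library size alone (0.15). POLA1, the catalytic subunit of polymerase alpha, passed the test in neither clone, with log2 fold changes of -0.06 ± 0.07 and 0.12 ± 0.07.

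POLD3, an accessory subunit of polymerase delta that also serves break-induced replication, was at 56.0 and 57.0 CPM in untreated Surv-GFP, 52.2 and 50.1 after TMZ, 55.7 and 57.3 in untreated SurvNESmut-GFP and 72.7 and 76.3 after TMZ. The untreated groups overlapped and SurvNESmut-GFP after TMZ stood above all others. POLD3 rose by 0.40 ± 0.06 in SurvNESmut-GFP (edgeR adjusted p = 3.2e-05) and fell by 0.14 ± 0.06 in Surv-GFP (edgeR adjusted p = 0.042). The call of this fall was lost whichever of the 4 Surv-GFP libraries was left out (-0.17 to -0.13). It was also lost with DESeq2 (-0.17) and with the replicate letter as a block. POLD1, the catalytic subunit, fell by 0.28 ± 0.05 in Surv-GFP and rose by 0.20 ± 0.05 in SurvNESmut-GFP, the latter not without untreated replicate b (0.17). POLD2, the small subunit, was at 148 and 154 CPM in untreated Surv-GFP, 163 and 165 after TMZ, 125 and 123 in untreated SurvNESmut-GFP and 129.5 and 133 after TMZ. It was among the few members higher in Surv-GFP, and rose there by 0.12 ± 0.05 (edgeR adjusted p = 0.038). The call of this rise was lost with DESeq2, with either other scaling, with the replicate letter as a block and without the filter on low counts. It was also lost without any of the 4 libraries (0.08 to 0.15).

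POLE, the catalytic subunit of polymerase epsilon, was at 115 and 128 CPM in untreated Surv-GFP, 94.1 and 93.8 after TMZ, 182 and 183 in untreated SurvNESmut-GFP and 195 and 194 after TMZ. It fell by 0.37 ± 0.05 in Surv-GFP and was at 0.09 ± 0.05 in SurvNESmut-GFP, and the effects differed by 0.46 ± 0.08 (edgeR adjusted p = 0.00016). POLE2, the second subunit, was the least abundant member in CPM in untreated Surv-GFP, at 7.32 and 8.17 CPM, with 4.92 and 5.85 after TMZ, 9.87 and 10.6 in untreated SurvNESmut-GFP and 11.7 and 12.3 after TMZ. Its fall of 0.53 ± 0.14 in Surv-GFP was not called without TMZ replicate a (-0.4). The difference between the clones' effects was 0.76 ± 0.18 (edgeR adjusted p = 0.0041).

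RPA1, the large subunit of the single-strand binding complex, was at 96.2 and 101 CPM in untreated Surv-GFP, 67.6 and 68.6 after TMZ, 154 and 151 in untreated SurvNESmut-GFP and 166 and 161 after TMZ. It fell by 0.53 ± 0.05 in Surv-GFP (edgeR adjusted p = 1.8e-07), was at 0.09 ± 0.05 in SurvNESmut-GFP (called at 0.13 with library size alone), and the effects differed by 0.62 ± 0.07 (edgeR adjusted p = 3.7e-06). The other RPA subunits did not move with it. RPA2 passed the test in neither clone, and RPA3 fell in SurvNESmut-GFP (-0.24 ± 0.07, not called without TMZ replicate a, -0.14, or untreated replicate b, -0.20, or with DESeq2, -0.24). FEN1, the nuclease that trims Okazaki fragments, was at 144 and 152 CPM in untreated Surv-GFP, 144 and 135 after TMZ, 233 and 235 in untreated SurvNESmut-GFP and 218 and 217 after TMZ. The clones stood far apart and TMZ changed FEN1 in neither by the test, with log2 fold changes of -0.08 ± 0.05 and -0.10 ± 0.05. LIG1, the ligase that joins the fragments, fell in Surv-GFP (-0.38 ± 0.05) and was at 0.05 ± 0.05 in SurvNESmut-GFP.

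**Figure D4:**
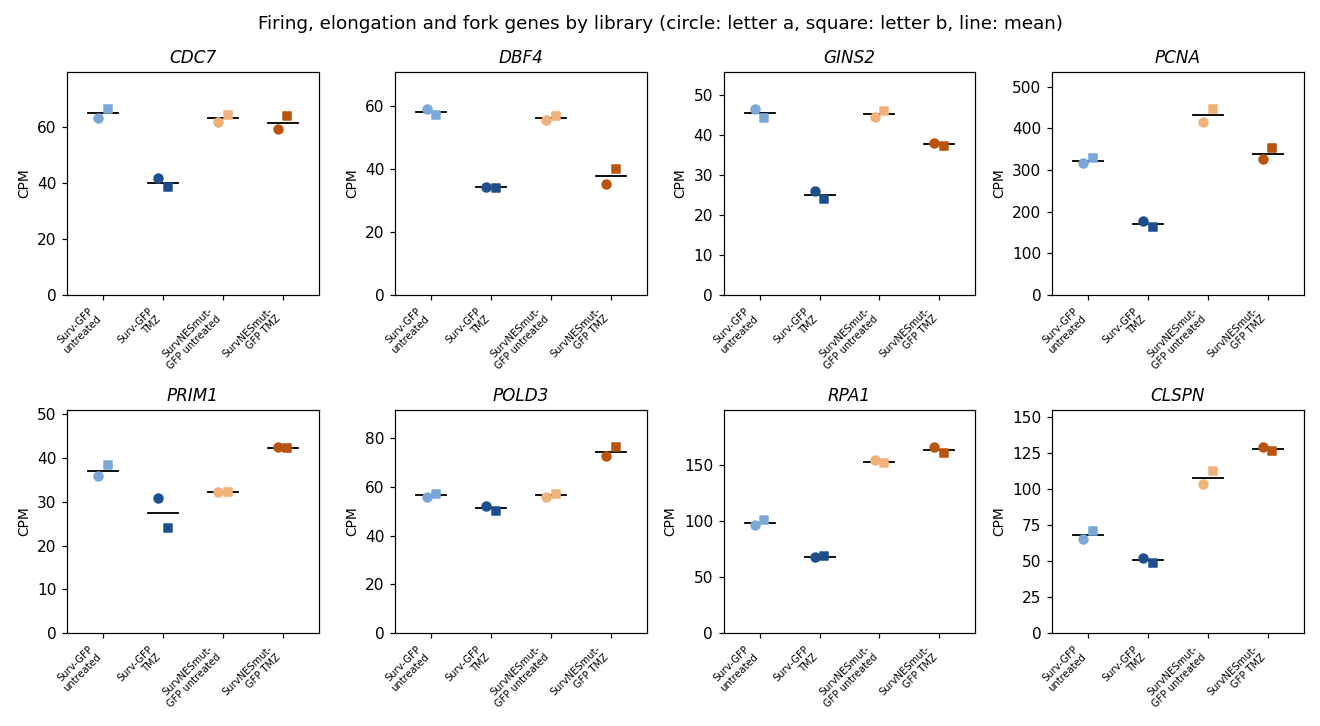
CPM per library (y axis, from 0) of 8 firing, elongation and fork genes in the 4 groups, circles for letter a, squares for letter b and lines for the mean. CDC7, GINS2, PCNA and RPA1 drop in Surv-GFP after TMZ, DBF4 drops in both clones, and PRIM1, POLD3 and CLSPN are highest in SurvNESmut-GFP after TMZ.

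Of the 5 genes grouped as fork and chromatin genes, MCM8 among them, 4 rose in SurvNESmut-GFP, of which TIMELESS kept its call in every alternative setting. CLSPN encodes claspin, which couples the fork to the checkpoint kinase CHK1, and was at 65.5 and 71.0 CPM in untreated Surv-GFP, 52.4 and 48.9 after TMZ, 103 and 113 in untreated SurvNESmut-GFP and 129 and 126 after TMZ. It fell by 0.43 ± 0.06 in Surv-GFP and rose by 0.24 ± 0.06 in SurvNESmut-GFP, the rise not called without untreated replicate a (0.18), and the effects differed by 0.67 ± 0.09 (edgeR adjusted p = 1.4e-05). TIMELESS, of the fork protection complex, was at 148 and 160.2 CPM in untreated Surv-GFP, 145 and 144 after TMZ, 158 and 161 in untreated SurvNESmut-GFP and 188 and 194 after TMZ. Only the SurvNESmut-GFP libraries after TMZ stood above the others, and TIMELESS rose there by 0.26 ± 0.05 (edgeR adjusted p = 0.00077). MCM8, a helicase of homologous recombination related to the MCM ring, was at 133 and 142 CPM in untreated Surv-GFP, 164 and 151 after TMZ, 162 and 173 in untreated SurvNESmut-GFP and 196 and 199 after TMZ. It rose by 0.19 ± 0.06 and 0.24 ± 0.06. The Surv-GFP call was lost without replicate a of either group (0.15 and 0.13) and the SurvNESmut-GFP call without untreated replicate a (0.19).

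The chromatin assembly factor CAF-1 places histones on the new DNA. CHAF1A, its large subunit, was at 74.1 and 80.1 CPM in untreated Surv-GFP, 62.2 and 60.3 after TMZ, 98.4 and 109 in untreated SurvNESmut-GFP and 113 and 108 after TMZ. It fell by 0.33 ± 0.06 in Surv-GFP and was at 0.09 ± 0.06 in SurvNESmut-GFP. CHAF1B, the middle subunit, was at 9.97 and 9.55 CPM in untreated Surv-GFP, 7.01 and 6.49 after TMZ, 23.7 and 27.4 in untreated SurvNESmut-GFP and 28.8 and 31.3 after TMZ. The SurvNESmut-GFP libraries were all above the Surv-GFP libraries. CHAF1B fell by 0.53 ± 0.13 in Surv-GFP (edgeR adjusted p = 0.0021), and its rise of 0.23 ± 0.09 in SurvNESmut-GFP (edgeR adjusted p = 0.047) was lost without untreated replicate a (0.13), without TMZ replicate b (0.18), and, at 0.23 in each, with DESeq2, with its size factors and with only the 4 libraries compared. The difference of 0.77 ± 0.16 was called in every alternative setting.

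A second comparison set the clones against each other at equal exposure. Without TMZ, 33 of 49 members were higher and 3 lower in SurvNESmut-GFP, against 34.7% and 29.4% of all tested genes, with a median log2 difference of 0.40. Under TMZ, 42 were higher and 2 lower, against 34.5% and 34.7%, with a median of 0.62. Of these, 32 members were higher in SurvNESmut-GFP at both exposures, a joint count that was not taken over all tested genes. The members lower without TMZ were MCM3, ORC6 and POLD2 (-0.37 ± 0.05, -0.33 ± 0.07 and -0.28 ± 0.05), and under TMZ they were POLD2 and ORC5 (-0.32 ± 0.05 and -0.23 ± 0.07), of which ORC5 lost its call without Surv-GFP TMZ replicate b (-0.20). These comparisons use the same libraries as the TMZ effects above and are not independent of them.

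Under TMZ 10 members were higher in SurvNESmut-GFP by a log2 difference of at least 1, against 10.0% of all tested genes. The 3 largest were CHAF1B at 2.15 ± 0.11, CLSPN at 1.33 ± 0.06 and RPA1 at 1.26 ± 0.05, followed by POLE2 at 1.16 ± 0.13 and MCM2 at 1.13 ± 0.05. By the adjusted p of 0.05 alone, 34.5% of all tested genes were higher and 34.7% lower under TMZ. All 20 elongation genes passed the test under TMZ, 19 higher and POLD2 lower. Of these, RPA2 lost its call without the filter on low counts, with DESeq2, with only the 4 libraries compared, and without any of the 4 libraries except SurvNESmut-GFP TMZ replicate a (0.08 to 0.14), and RFC1 lost it without Surv-GFP TMZ replicate b (0.11) or SurvNESmut-GFP TMZ replicate a (0.12). The licensing gene MCM3 lost its call in the same 3 settings as RPA2 and without any of the 4 libraries (0.07 to 0.12). Of the licensing genes 11 of 15 were higher, and CDC6 was at -0.10 ± 0.06, not called, after 0.45 ± 0.06 without TMZ. Without SurvNESmut-GFP TMZ replicate b or Surv-GFP TMZ replicate b the CDC6 difference under TMZ was called (-0.17 and -0.18).

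**Figure D5:**
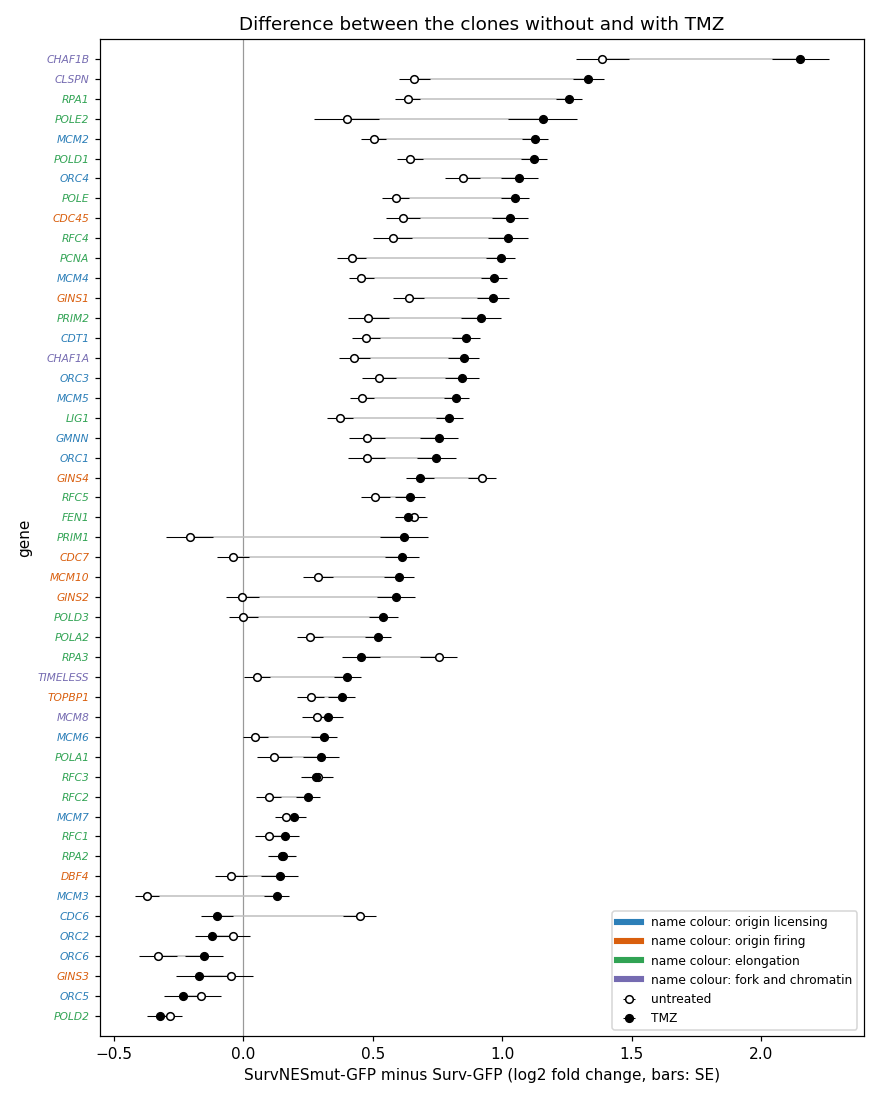
Log2 difference between the clones (SurvNESmut-GFP minus Surv-GFP, x axis) for each of the 49 members (y axis, ordered by the difference under TMZ), open points without and filled points with TMZ, bars for the SE. Most filled points lie to the right of the open ones, CHAF1B reaches 2.15, and CDC6, GINS4 and RPA3 move to the left.

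Set per length, the levels of the members spanned a wide range. On the scale of CPM per kb of the longest coding transcript in GENCODE 29, PCNA was at 233 and 242 and MCM7 at 225 and 230 in untreated Surv-GFP, and these neighbours differed by little more than their letters. MCM3 followed at 96.9 and 101. At the other end were CHAF1B with a mean of 2.18, ORC4 with 4.21 and POLE2 with 4.32 CPM per kb. PCNA kept the first place in the untreated SurvNESmut-GFP libraries with a mean of 317 CPM per kb, and after TMZ in Surv-GFP MCM7 (210.4) was above PCNA (125). The isoforms in these cells are not known from the count file, so the order of close neighbours depends on the transcript used.

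Other replication genes, 40 outside the members, gave the values that put them beside the set. In Surv-GFP 15 of 40 fell and 10 rose after TMZ, in SurvNESmut-GFP 8 fell and 8 rose, and the difference was higher for 15 and lower for 4. The shares of 20% and 20% in SurvNESmut-GFP lay near those of all tested genes (19.1% lower, 18.6% higher), those in Surv-GFP were 37.5% lower and 25% higher (28.9% and 30.1%), and those of the difference 37.5% higher and 10% lower (16.6% and 20.2%). TOP2A, the topoisomerase that untangles sister chromatids, fell most in both clones, from 591 and 646 to 211 and 204 CPM and from 707 and 728 to 384 and 430 CPM. TICRR, needed for firing, and UHRF1, which carries DNA methylation over to the new strand, fell by 0.93 ± 0.07 and 0.92 ± 0.08 in Surv-GFP. Both also fell in SurvNESmut-GFP, with log2 fold changes of -0.19 ± 0.06 and -0.21 ± 0.07. TOP1, the topoisomerase ahead of the fork, and ASF1A, a histone chaperone, moved in opposite directions, with log2 fold changes of 0.32 ± 0.05 and 0.56 ± 0.07 in Surv-GFP and of -0.27 ± 0.05 and -0.25 ± 0.07 in SurvNESmut-GFP. POLD4, the smallest subunit of polymerase delta, rose in Surv-GFP by 0.54 ± 0.07. In SurvNESmut-GFP DSCC1, of an alternative clamp loader, DTL, which targets CDT1 for degradation, and CIZ1 rose by 0.46 ± 0.07, 0.35 ± 0.05 and 0.33 ± 0.05. DBF4B, a second activator of CDC7, fell there by 0.31 ± 0.08. Surv-GFP showed the same direction for DTL (0.23 ± 0.05), CIZ1 (0.14 ± 0.05) and DBF4B (-0.34 ± 0.08), all called. DSCC1 was not called there (0.02 ± 0.07).

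Cell cycle genes and p53 targets were set beside the members, in lists chosen with earlier results of these data known. In Surv-GFP 28.9% of all tested genes fell and 30.1% rose. In SurvNESmut-GFP these shares were 19.1% and 18.6%. Of 20 genes of G2 and mitosis 20 fell in both clones, where the median log2 fold change was -1.39 for Surv-GFP and -0.78 for SurvNESmut-GFP, against -0.22 and 0.08 for the replication genes. CDKN1A, which encodes the CDK inhibitor p21, was at 86.6 and 77.3 CPM in untreated Surv-GFP, 908 and 975 after TMZ, 117 and 119 in untreated SurvNESmut-GFP and 429 and 492 after TMZ. It rose by 3.52 ± 0.07 and 1.96 ± 0.07 on the log2 scale, with a difference of -1.56 ± 0.10 between the clones. Of 8 p53 target genes, CDKN1A among them, 7 rose in each clone. Of 8 genes around the G1 to S transition, 5 fell (62.5%) and 2 rose (25%) in Surv-GFP, the latter below the share of all tested genes. In SurvNESmut-GFP none of these 8 fell and 3 rose (37.5%). CDKN1A is in this list too and is among its risers in both clones. E2F1 was at 79.6 and 75.3 CPM in untreated Surv-GFP, 61.5 and 57.4 after TMZ, 130 and 141 in untreated SurvNESmut-GFP and 132 and 131 after TMZ, and fell in Surv-GFP (-0.38 ± 0.06). Their part in the changes of the replication genes was not tested.

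Several members share exon bases with a neighbour in GENCODE 29, and whether the libraries kept strand is unknown. The overlap was 53.7% of the exon bases of POLA2, 34.8% of PRIM1, 32.0% of MCM2, 23.6% of GINS4, 16.5% of GINS3 and 12.1% of POLD1, and below 10% for the other members named with their values. How reads of these stretches were assigned is not known, so the values of these genes carry that uncertainty. Among the neighbours of POLA2, PRIM1, MCM2, GINS4, GINS3 and POLD1, only HSD17B6 and TPRA1 were themselves counted. HSD17B6 shares 123 bases with PRIM1, and TPRA1 shares 45 bases with MCM2. The neighbours' part in the values was not tested.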

How the data were processed

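The authors deposited a table of raw whole-number read counts, 1 row for each of 26364 gene symbols plus 2 rows with no gene. These 2 rows held 11.2% to 14.3% and 1.19% to 1.28% of each library's reads and were left out. The submitters' processing notes name STAR 2.5.0b, Cufflinks 2.2.1 and edgeR without their roles. How reads were counted, on which annotation and build and with which strand setting, is not given in the sources used. A further 5 tables hold the authors' own edgeR comparisons (fold change, mean level, F, p-value and FDR per gene) and were not used.

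The 8 libraries were assigned to 4 groups by their labels. With edgeR 4.0.16 under R 4.3.3, all 8 libraries entered a single fit of 4 group means after TMM scaling. The low-count filter filterByExpr (by group, minimum count 10) kept 14201 genes, and the quasi-likelihood method was that of edgeR before version 4. The common biological coefficient of variation was 4.09%. From it 5 contrasts were taken: each clone's TMZ effect, the difference of both effects, and the clones against each other without and with TMZ. Adjusted p-values are by the Benjamini-Hochberg method over all tested genes at 0.05. Each SE is the log2 fold change divided by the square root of F. Alternatives were the scaling, the filter, DESeq2 1.42.0, the quasi-likelihood method of edgeR 4, the replicate letter as a block, fits on 4 libraries only, and each library left out in turn.

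Deviations of same-lettered libraries correlated between groups at -0.0671 to 0.0832, over 0.1 in 0 of 6 pairs. No pairing of the libraries by letter was thus seen, but such correlations cannot exclude one. Both tools were also tested on simulated data in which some genes changed by known folds. Changed genes with high counts were nearly all recovered and a part of those with low counts was missed. How this recovery carries over to changes of the size seen in the members was not tested. A member that missed the threshold is thus not shown to be unchanged, whether its counts are low or high. The recovery required of the self-test was set on the high-count genes after a first criterion over all changed genes had not been met by DESeq2.

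Values in every library are given for the 5 members with the largest change in each direction and clone, the 5 with the largest difference, and the most abundant member of each complex, and other members by fold change or count. Of the other replication genes the 3 with the largest changes in each direction and clone are named. The members and lists were chosen with earlier results of these data known.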

Additional observations from a re-analysis of the deposited data

Results flagged for a closer look

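For 31 of the 49 members the TMZ effect differed between the clones by the test of the difference itself, the interaction term of the model. It was higher for 28 and lower for 3, against 16.6% and 20.2% of all tested genes. The values are SurvNESmut-GFP minus Surv-GFP differences of log2 fold changes. The licensing genes were MCM2 (0.62), MCM4 (0.51), MCM3 (0.50), CDT1 (0.39), MCM5 (0.37), ORC3 (0.32), GMNN (0.28), MCM6 (0.27) and CDC6 (-0.55). The firing genes were CDC7 (0.65), GINS2 (0.59), CDC45 (0.41), GINS1 (0.33), MCM10 (0.31) and GINS4 (-0.24). Elongation genes were PRIM1 (0.83), POLE2 (0.76), RPA1 (0.62), PCNA (0.58), POLD3 (0.54), POLD1 (0.48), POLE (0.46), RFC4 (0.45), PRIM2 (0.44), LIG1 (0.42), POLA2 (0.26) and RPA3 (-0.30). The fork and chromatin genes were CHAF1B (0.77), CLSPN (0.67), CHAF1A (0.42) and TIMELESS (0.35). Groups of 2 libraries are too small for the check on single outlying samples.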

How the results depend on the processing

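Each construct is 1 clone and each group holds 2 libraries, and whether their letters mark biological replicates or technical duplicates is not given, so the p-values cover the spread between letters alone. Fallers of Surv-GFP numbered 29, of which 22 kept their call in all 11 alternatives, and of 13 risers and 9 fallers of SurvNESmut-GFP 6 and 6 did. The risers of Surv-GFP numbered 6, and 3 to 5 with 1 library left out, with 3 without untreated replicate a or TMZ replicate a. The 3 members with a lower difference of TMZ effects numbered 1 with library size alone and with DESeq2, and 1 to 3 with 1 library left out, with 1 without untreated Surv-GFP replicate a, Surv-GFP TMZ replicate b or untreated SurvNESmut-GFP replicate b. The 3 members lower in untreated SurvNESmut-GFP numbered 5 with DESeq2's size factors, library size alone, no filter or only the 4 libraries compared. The 2 members lower in SurvNESmut-GFP under TMZ numbered 2 to 4 with 1 library left out, 4 without SurvNESmut-GFP TMZ replicate a. The cause of these changes was not tested. With the replicate letter as a block, 5 members rose and 27 fell in Surv-GFP, 13 rose and 9 fell in SurvNESmut-GFP, and the other counts were as reported, though the letters were not shown to pair the libraries. Over the fold changes of single members in all these alternatives, 106 values lost a call and 28 gained one, against 2665 that kept direction and call.

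A sign changed in 43 cases, none of which was called (lowest adjusted p 0.634). With library size alone the values were, in the TMZ effect of SurvNESmut-GFP, 0.02 for GINS3 and 0.01 for RFC5, in the difference of TMZ effects 0.02 for POLD2, 0.05 for RFC3, 0.05 for RPA2 and 0.03 for FEN1, and in the untreated clone difference -0.01 for MCM6 and -0.01 for TIMELESS. With DESeq2's size factors, no filter or DESeq2 the difference of RFC3 and that of RPA2 were each 0.01. With 1 library left out the Surv-GFP effects spanned -0.02 to 0.09 for ORC6, -0.16 to 0.05 for POLA1 and 0.00 to 0.09 for RFC3. The SurvNESmut-GFP effects spanned 0.00 to 0.08 for ORC2, -0.06 to 0.02 for GINS3, -0.09 to 0.02 for CDC7, -0.06 to 0.00 for RFC5, -0.01 to 0.06 for RPA2 and -0.01 to 0.05 for TOPBP1. The differences spanned -0.01 to 0.11 for MCM8, -0.05 to 0.05 for RFC3, -0.04 to 0.02 for RPA2 and -0.06 to 0.02 for FEN1. The untreated clone differences spanned 0.00 to 0.10 for MCM6, -0.10 to 0.03 for ORC2, -0.04 to 0.03 for GINS2, -0.02 to 0.02 for POLD3 and 0.00 to 0.11 for TIMELESS.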
